A study of Gossypium hirsutum and Gossypium barbadense with 16 samples.

Results

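Gohir.A05G359100 and Gohir.D04G055100 (the A05 and D04 genes) are the cotton homologs of Arabidopsis *MYB66* that the study's tree of MYB genes named GhMYB109. They are 2 of the 52514 orthologs in the expression table, and both were among the 42627 with a value above 0 in any library. The study drew them because it had listed both as higher in fiber cells at 2 days post anthesis (DPA). Comparisons of fiber with epidermal cells below are therefore descriptions without a test. Tests on epidermal libraries of 2 DPA share those libraries with the study's choice, so they are not independent of it. The A05 gene was highest in fiber cells of Gb3-79, at 26.6 and 30.9 FPKM, against 10.1 and 15.1 FPKM in fiber cells of GhTM-1. At 2 DPA it was also 2.68-fold higher in epidermal cells of Gb3-79 than in those of the fiberless mutant GhMD17, in a comparison that 11% of orthologs passed, but this call was lost on leaving out any 1 of its libraries. The D04 gene passed no test between groups.

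Epidermal cells of the ovule were laser-captured at 0 and 2 DPA from 3 greenhouse-grown lines, and their polyA RNA was sequenced with 2 libraries in each of 8 groups. The wild types were GhTM-1, an accession of *G. hirsutum*, and Gb3-79, an accession of *G. barbadense* that bears little of the short fuzz found on GhTM-1 seeds. GhMD17 is a fiberless line in the *G. hirsutum* background, with no fiber cells to capture. In the wild types, fiber cells and the epidermal layer that remained after their removal were captured separately at 2 DPA, while epidermal samples at 0 DPA still held the fiber initials. Stage and removal of the fibers therefore cannot be told apart in the wild types, and GhMD17 differs from GhTM-1 in the whole line background.

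Reads of Gb3-79 were mapped to the *G. barbadense* genome and those of the other lines to the *G. hirsutum* genome, so species and reference cannot be told apart. FPKM count fragments relative to transcript length and to all mapped fragments of a library. Between 25689 and 29504 orthologs per library were above 1 FPKM. The files hold no counts, so the counting error of each value is not known.

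R2R3 MYB proteins bind DNA and often act with bHLH and WD40 proteins in choosing the fate of epidermal cells. In Arabidopsis, MYB66 is WEREWOLF, which sets the hairless fate of root epidermal cells. GhMYB109 and GhMYB2 are cotton relatives studied in fiber and trichome development, and GhMYB25 is a MIXTA-like MYB with a role in fiber initiation. The IDs of the files were not annotated in the reference used here, so partner genes and sequences were not analysed here, and whether the A05 and D04 genes are a homoeologous pair was not analysed here.

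**Figure D1:**
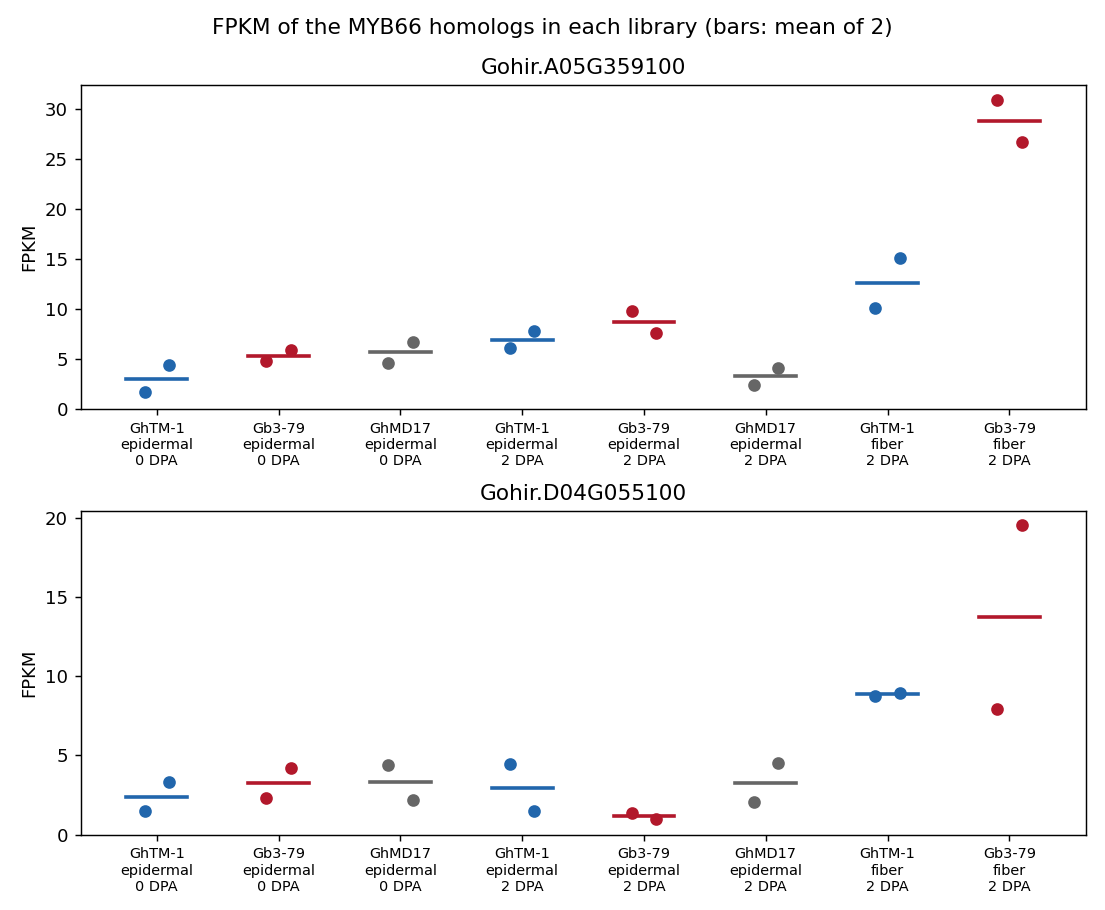
FPKM of the A05 gene (top) and the D04 gene (bottom) in each library (points) with the mean of 2 libraries (bars), for GhTM-1 (blue), Gb3-79 (red) and GhMD17 (gray). Both fiber groups lie above every epidermal library in both panels, and the Gb3-79 fiber libraries of the D04 gene lie far apart, at 7.96 and 19.5 FPKM.

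In fiber cells at 2 DPA, the A05 gene measured 10.1 and 15.1 FPKM in GhTM-1 and 30.9 and 26.6 FPKM in Gb3-79. In the epidermal layer of the same stage it measured 6.05 and 7.82 FPKM in GhTM-1, 9.83 and 7.59 FPKM in Gb3-79, and 2.43 and 4.08 FPKM in GhMD17. All 4 fiber libraries were above all 12 epidermal libraries, a pattern that 2.47% of the 42627 orthologs had. Since the study chose the genes for a higher value in fiber cells, nothing is read from that share. The ratio of mean FPKM, fiber over epidermal cells, was 1.82 in GhTM-1 and 3.30 in Gb3-79, or 0.76 ± 0.35 and 1.62 ± 0.35 (SE, n = 2 libraries a group) on the log2(FPKM + 1) scale. Against epidermal cells of GhMD17, the ratio was 3.87 for fiber cells of GhTM-1 and 8.85 for those of Gb3-79.

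The D04 gene was also above every epidermal library in fiber cells, at 8.77 and 8.95 FPKM in GhTM-1 and 7.96 and 19.5 FPKM in Gb3-79. In the epidermal layer at 2 DPA it measured 4.45 and 1.5 FPKM in GhTM-1, 1.35 and 0.963 FPKM in Gb3-79, and 2.05 and 4.51 FPKM in GhMD17. The Gb3-79 epidermal libraries were the lowest of all 16. The ratio of mean FPKM, fiber over epidermal cells, was 2.98 in GhTM-1 and 11.9 in Gb3-79, with log2 differences of 1.42 ± 0.53 and 2.66 ± 0.53 (SE, n = 2). The Gb3-79 fiber libraries differed 2.45-fold from each other, and the log2 difference in Gb3-79 was 2.06 without replicate 2 of the fiber cells and 3.26 without replicate 1. In such bulk samples, fewer cells of a type and less RNA per cell cannot be told apart.

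Whether this step differed in size between the species was tested with an interaction term in limma, across all orthologs. For the A05 gene the step was larger in Gb3-79 by 0.86 ± 0.49 (SE, log2 scale), with a 95% interval of -0.22 to 1.95 and an adjusted p of 0.709. For the D04 gene it was larger by 1.24 ± 0.74, with an interval of -0.40 to 2.88 and an adjusted p of 0.731 in limma. Neither passed the threshold of 0.05, which 0.312% of orthologs passed, and both intervals include a step of equal size in the species.

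Within fiber cells, the Gb3-79 libraries of the A05 gene lay above both GhTM-1 libraries, with a ratio of means of 2.29. Here and below, the share of all orthologs without overlap between 2 groups was not counted. Nothing is read from a lack of overlap alone. The log2 difference was 1.15 ± 0.35 (SE, n = 2), and the adjusted p of limma was 0.0788, so the difference did not pass, while 7.15% of orthologs did. It passed in limma with orthologs of a mean over 1 FPKM alone (adjusted p = 0.0478) and by the study's limits on level and ratio with the P of limma in place of the study's own, which 6.86% of orthologs passed. The D04 libraries of the 2 lines overlapped, with a log2 difference of 0.46 ± 0.53 and an adjusted p of 0.780 in limma. That direction turned without replicate 2 of the Gb3-79 fiber cells, to -0.14.

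Epidermal cells of the wild types were compared with those of GhMD17, where fibers fail to form. At 2 DPA the wild-type layer was what remained after the fibers were cut off, whereas GhMD17 gave its top layer. Layer, line and fiber formation therefore cannot be told apart at that stage, and Gb3-79 differs from GhMD17 in species and reference as well. At 0 DPA the A05 gene measured 1.67 and 4.37 FPKM in GhTM-1, 4.79 and 5.87 FPKM in Gb3-79, and 4.60 and 6.73 FPKM in GhMD17. Both GhTM-1 libraries were below both GhMD17 libraries, whereas those of Gb3-79 overlapped GhMD17. The log2 differences from GhMD17 were -0.80 ± 0.35 for GhTM-1 (adjusted p = 0.277, limma) and -0.060 ± 0.35 for Gb3-79 (adjusted p = 0.995). At 0 DPA, 4.82% and 15.1% of orthologs passed in these comparisons.

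At 2 DPA, both wild types were above GhMD17 in the A05 gene without overlap, which is a description of 2 libraries a group. The log2 difference was 1.21 ± 0.35 (SE, n = 2) for Gb3-79, with a ratio of means of 2.68 and an adjusted p of 0.0492 in limma, the only one of the 22 tests of the 2 genes that passed. In this comparison 11% of orthologs passed, 6.02% with the higher value in Gb3-79. The study compared fiber cells with these same epidermal groups when it listed genes, so the test is not independent of that choice. The call was lost on leaving out any of the 4 libraries compared, with log2 differences of 0.93 to 1.49 and adjusted p of 0.0643 to 0.270 in limma. It was also lost with a pseudocount of 0.1 FPKM, in a fit to these groups alone and after rescaling of the libraries. For GhTM-1 the log2 difference was 0.92 ± 0.35, with a ratio of means of 2.13 and an adjusted p of 0.195 in limma, where 4.85% of orthologs passed.

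The D04 gene did not show this order. At 0 DPA it measured 1.47 and 3.35 FPKM in GhTM-1, 2.32 and 4.20 FPKM in Gb3-79, and 4.42 and 2.18 FPKM in GhMD17, and the 3 lines overlapped. At 2 DPA both Gb3-79 libraries were below both GhMD17 libraries, with a log2 difference of -0.93 ± 0.53 and an adjusted p of 0.318 in limma. The 95% interval of -2.09 to 0.23 reaches from a lower to a slightly higher level in Gb3-79. The GhTM-1 and GhMD17 libraries overlapped, with a log2 difference of -0.15 ± 0.53 (adjusted p = 0.978, limma).

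From 0 to 2 DPA, the epidermal A05 values were higher in GhTM-1 and in Gb3-79 and lower in GhMD17, each without overlap of the libraries. The pattern was noted after the values were seen, so nothing is read from its share of 0.235% of the 42627 orthologs, or from the 0.434% with its reverse. The log2 differences were 1.06 ± 0.35 in GhTM-1 (adjusted p = 0.241), 0.61 ± 0.35 in Gb3-79 (adjusted p = 0.582) and -0.66 ± 0.35 in GhMD17 (adjusted p = 0.658), so none passed in limma. In these 3 comparisons 1.35%, 0.898% and 0.678% of orthologs passed, and 0.298% and 0.375% passed the test that the stage difference of GhTM-1 or of Gb3-79 differs from that of GhMD17, which the A05 gene did not pass either (adjusted p = 0.339 and 0.510, limma). The D04 values overlapped between stages in GhTM-1 and GhMD17, and in Gb3-79 they were lower at 2 DPA without overlap, with a log2 difference of -0.95 ± 0.53 (adjusted p = 0.570, limma).

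**Figure D2:**
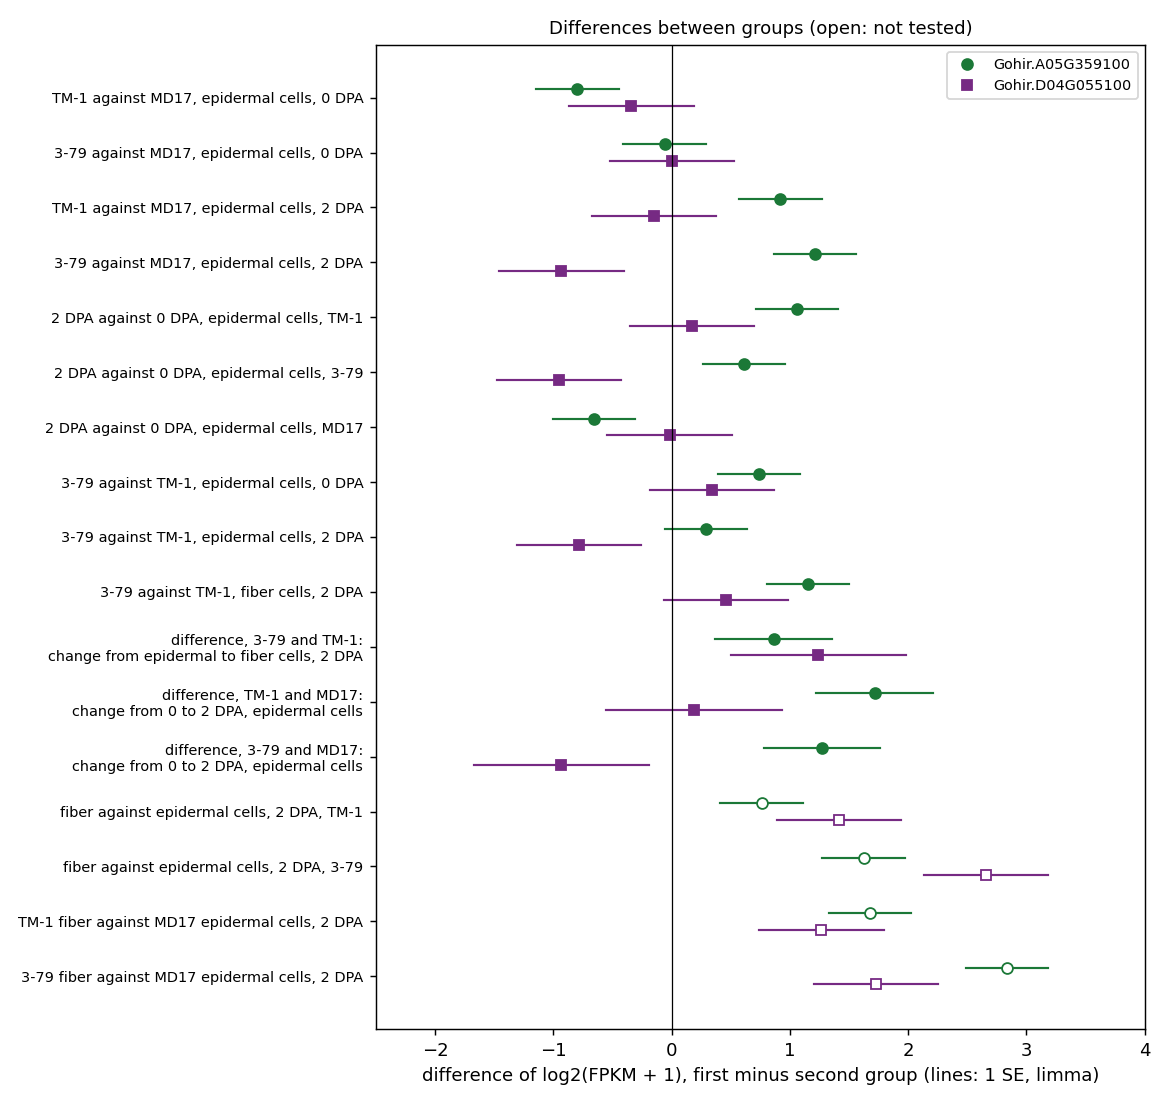
Difference of log2(FPKM + 1), first minus second group, for the A05 gene (green circles) and the D04 gene (purple squares), with 1 SE from limma as lines. Open symbols mark the fiber comparisons for which the study chose the genes, given without a test. In epidermal cells at 2 DPA the A05 gene is higher in Gb3-79 than in GhMD17 by 1.21, where the D04 gene has -0.93.

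Between the wild types, the epidermal values of the A05 gene were higher in Gb3-79 at 0 DPA without overlap, and overlapped at 2 DPA. How many orthologs lack overlap in such comparisons was not counted, so the lack of it is only a description. The log2 differences, Gb3-79 minus GhTM-1, were 0.74 ± 0.35 (adjusted p = 0.242, limma) and 0.29 ± 0.35 (adjusted p = 0.717). Those of the D04 gene were 0.34 ± 0.53 (adjusted p = 0.804) at 0 DPA, with overlap, and -0.78 ± 0.53 (adjusted p = 0.433, limma) at 2 DPA, without it. In these comparisons, 9.44% and 9.51% of orthologs passed. Over its 11 tests in limma, the unadjusted p of the D04 gene was under 0.05 in 0, with 0.0988 as the lowest, beside 8.69% to 27.7% of all orthologs per test. That of the A05 gene was under 0.05 in 5 of the same 11 tests in limma, with 0.00538 as the lowest.

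Ordered by mean FPKM, the A05 gene ran from 3.02 in GhTM-1 at 0 DPA to 28.8 in Gb3-79 fiber cells. Neighbours in the order overlapped except at 3 steps: from GhMD17 at 2 DPA to Gb3-79 at 0 DPA, from the Gb3-79 epidermal layer at 2 DPA to GhTM-1 fiber cells, and from there to Gb3-79 fiber cells. For the D04 gene, the epidermal layer of Gb3-79 at 2 DPA was the lowest, with a mean of 1.16 FPKM. The other 5 epidermal groups had means of 2.41 to 3.30 FPKM, and each overlapped its neighbour. The fiber groups followed, at 8.86 and 13.7 FPKM, and overlapped each other.

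The A05 gene had the higher FPKM of the pair in 15 of 16 libraries, the exception being replicate 2 of GhMD17 at 2 DPA, at 4.08 against 4.51 FPKM. FPKM is scaled by length, but the share of each gene's reads that map uniquely is not known, so a constant gap between the genes cannot be told apart from a difference in mapping. The mean log2 ratio of A05 to D04, each with 1 FPKM added, was 0.79 ± 0.79 (SD, n = 16). The exact two-sided sign-flip test over the libraries gave p = 0.000122, and 0.000488 after Benjamini-Hochberg adjustment over the 4 tests of this ratio. Libraries of a group share line and tissue, and p measures the spread between libraries only.

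**Figure D3:**
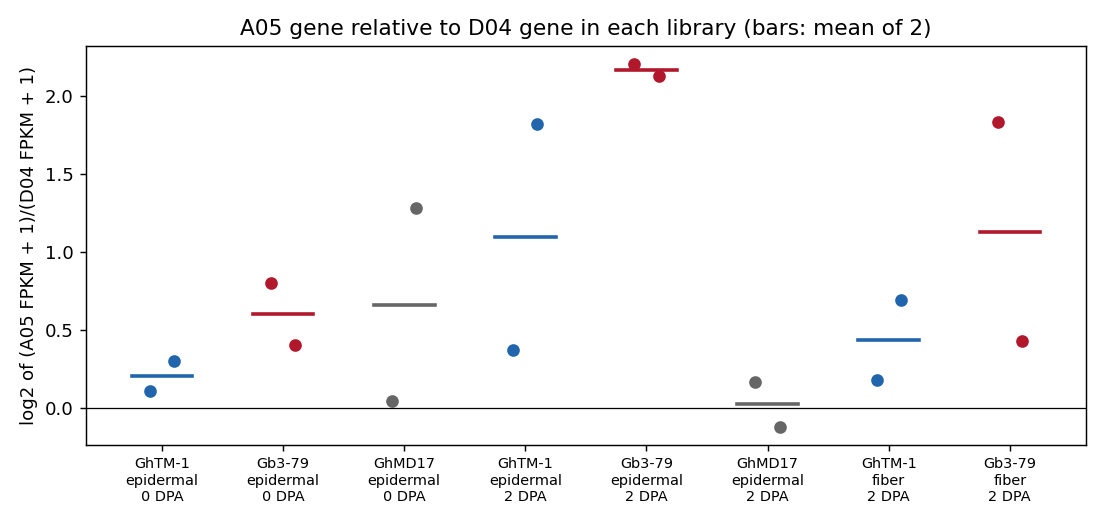
Log2 ratio of the A05 gene to the D04 gene, each with 1 FPKM added, in each library (points) with the mean of 2 libraries (bars). The Gb3-79 epidermal layer at 2 DPA is the highest group, at 2.2 and 2.13, and GhMD17 at 2 DPA is the lowest, at 0.17 and -0.12.

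The ratio of mean FPKM, A05 over D04, was over 2 in 3 groups. It was 7.53 in the epidermal layer of Gb3-79 at 2 DPA, where the A05 gene made up 87.9% and 88.8% of the summed FPKM of the pair. It was 2.33 in that of GhTM-1, where the libraries were far apart at 57.6% and 83.9%. The third was Gb3-79 fiber cells, at 2.1, with 79.5% and 57.7%. The ratio was nearest to 1 in GhMD17 at 2 DPA, at 0.992.

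The log2 ratio was higher in Gb3-79 than in GhTM-1 by 0.72, averaged over the 3 kinds of sample. The lines were mapped to different genomes, so a difference in unique mapping cannot be told apart from one in expression. In the Gb3-79 epidermal layer at 2 DPA, the group with the highest ratio, the D04 gene was at 1.35 and 0.963 FPKM. These values are near the 1 FPKM added. The exact two-sided permutation test within each kind gave p = 0.0278, adjusted p = 0.0556 over the 4 tests, and the smallest p it allows is 0.00926. The difference kept its direction without any single library, at 0.48 to 0.96, and p was above 0.05 without 8 of the 12 libraries, up to 0.176 without replicate 1 of GhTM-1 fiber cells. The ratio was lower in fiber than in epidermal cells at 2 DPA by a log2 difference of -0.85, with p = 0.167 in the exact permutation test within lines, which cannot go below 0.0556. Between stages in epidermal cells it differed by 0.60, higher at 2 DPA, with an exact permutation p of 0.130 (adjusted p = 0.167 for both).

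The study's tree held 18 further MYB genes, nearly all of them chosen on these libraries for a change in fiber cells, so their direction is not independent evidence. In epidermal cells, 5 were higher and 2 lower in GhTM-1 than in GhMD17 at 0 DPA, and 6 were higher and 7 lower in Gb3-79 than in GhMD17, by adjusted p in limma. Of all orthologs, 2.96% were higher and 1.86% lower in the first comparison, and 7.96% and 7.12% in the second. Their median log2 difference was -0.41 and -0.69, beside -0.020 and -0.0067 over all orthologs. At 2 DPA, 5 were higher and 0 lower in GhTM-1 than in GhMD17, and 6 were higher and 4 lower in Gb3-79, with medians of -0.088 and 0.070 beside -0.078 and -0.015. The shares of all orthologs were 2.77% and 2.07% for GhTM-1 and 6.02% and 5% for Gb3-79. From 0 to 2 DPA, 1 was higher in Gb3-79 and 2 in GhMD17 at the later stage, none of the 18 passed in GhTM-1 (6 had an unadjusted p under 0.05, as did 11.3% of all orthologs), and none was lower (of all orthologs, 0.469%, 0.425% and 0.889% were higher and 0.429%, 0.253% and 0.46% lower). Between the wild types, 1 was higher and 2 were lower in Gb3-79 in epidermal cells at 0 DPA, beside 5.47% and 3.97% of all orthologs. At 2 DPA, 0 were higher and 3 lower, beside 5.91% and 3.6%. In fiber cells none of the 18 passed in limma (4 had an unadjusted p under 0.05, as did 19.2% of all orthologs), beside 3.85% and 3.29%, and their median was -0.29 beside 0.00.

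The GhMYB25 genes were set beside the A05 gene in each line. The study listed them as higher in fiber cells on these libraries, so their differences from GhMD17 are not independent evidence. Gohir.D04G191100 lay between 86.9 and 281 FPKM in the wild-type libraries and between 0.196 and 14.4 FPKM in GhMD17. Gohir.1Z049716 lay between 64.2 and 199 FPKM in the wild types and between 0 and 8.51 FPKM in GhMD17. Both were lower in GhMD17 at 0 DPA, by 7.18 ± 0.25 and 7.02 ± 0.15 on the log2 scale against GhTM-1 (adjusted p = 1.76e-07 and 3.91e-09, limma). The epidermal layer of the wild types at 2 DPA still held 86.9 to 157 FPKM of Gohir.D04G191100, and in Gb3-79 it was 2.63 ± 0.25 above GhMD17 in log2 (adjusted p = 8.81e-05, limma). At 2 DPA the GhMYB25 genes and the A05 gene were both higher in Gb3-79 than in GhMD17. At 0 DPA the GhMYB25 genes were higher there by 6.47 and 6.45 in log2, where the A05 gene had -0.060. A part of GhMYB25 in the A05 difference was not tested.

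The stage differences of the GhMYB25 genes are set beside those of the A05 gene, none of which passed. In GhMD17 from 0 to 2 DPA, Gohir.D04G191100 rose by 3.10 ± 0.25 and Gohir.1Z049716 by 3.04 ± 0.15 in log2 (adjusted p = 0.000384 and 7.85e-06, limma), where the A05 gene had -0.66 (adjusted p = 0.658). In GhTM-1 their log2 differences between stages were -0.62 and -0.35 (adjusted p = 0.377 and 0.408, limma), where the A05 gene had 1.06 (adjusted p = 0.241).

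The GhMYB2 genes, the other homologs of *MYB66* in the tree, had 12.4 to 43.4 FPKM in all 16 libraries, GhMD17 included. Gohir.A08G168600 was lower in Gb3-79 than in GhMD17 at 0 DPA, with a log2 difference of -0.80 ± 0.18 (adjusted p = 0.0140, limma). Gohir.D08G187100 was lower in Gb3-79 than in GhMD17 at 2 DPA, with a log2 difference of -1.33 ± 0.29 (adjusted p = 0.0140, limma), where the A05 gene was higher. In fiber against epidermal cells of GhTM-1, the log2 differences of the GhMYB2 genes were 0.30 ± 0.18 and 0.12 ± 0.29, given without a test beside 0.76 and 1.42 for the A05 and D04 genes. In those of Gb3-79 they were 0.56 ± 0.18 and 0.84 ± 0.29, beside 1.62 and 2.66.

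**Figure D4:**
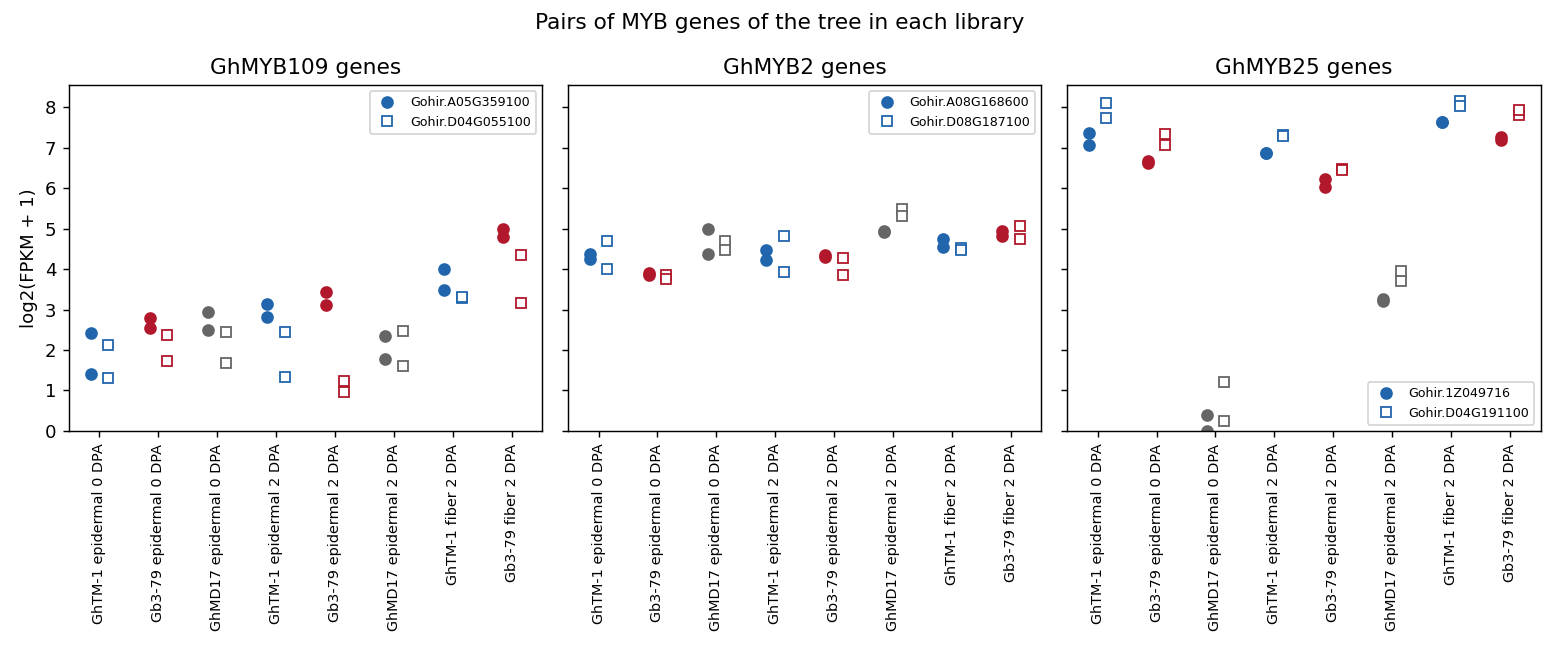
Log2(FPKM + 1) in each library of the GhMYB109 genes (left), the GhMYB2 genes (middle) and the GhMYB25 genes (right), for GhTM-1 (blue), Gb3-79 (red) and GhMD17 (gray), with filled circles and open squares for the genes of each pair. The GhMYB25 genes have 0 to 1.30 FPKM in GhMD17 at 0 DPA, where the GhMYB109 genes have 2.18 to 6.73 FPKM and the GhMYB2 genes 19.9 to 30.6 FPKM.

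Over the 8 group means of log2(FPKM + 1), the A05 and D04 genes had a Pearson r of 0.73 with each other, as a description in which the groups share lines and both values of a group come from the same libraries. Among 23335 orthologs with a group mean of at least 5 FPKM, the D04 gene ranked 1700 by likeness to the A05 gene, and the A05 gene ranked 724 by likeness to the D04 gene. The most like the A05 gene were Gohir.D02G073300 (r = 0.996) and Gohir.A05G192400 (r = 0.990). Over the 16 libraries, Gohir.A05G192400 ranked 1, with r = 0.96, and Gohir.D02G073300 ranked 388, with r = 0.80. The most like the D04 gene over the group means were Gohir.A08G214400 (r = 0.99) and Gohir.D10G125600 (r = 0.97). Over the 16 libraries they ranked only 607 and 453, with r = 0.61 and 0.63.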

How the data were processed

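The 16 libraries of polyA RNA came from laser-captured cells. Per the labels and the paper's methods, the authors mapped reads with TopHat2 2.1.1, used SAMtools 1.5, kept uniquely mapped reads and computed the deposited FPKM with Cufflinks 2.2.1. FPKM of the ortholog table were used as deposited. The G. barbadense genes Gobar.A05G378700 and Gobar.D04G061500 hold the same Gb3-79 values as the A05 and D04 genes. Mapping of unique reads can lower the FPKM of near-identical genes, to an extent not known here.

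Group means of log2(FPKM + 1) were fitted over all 16 libraries with limma 3.58.1 in R 4.3.3, with a variance trend, and p-values were adjusted by Benjamini-Hochberg over 42627 orthologs in each comparison, with calls at 0.05. On simulated data for GhTM-1 against GhMD17 at 0 DPA, orthologs changed 8-fold were drawn only from those with a mean over 5 FPKM. Of 200 such orthologs, 185 were called among 42627, as were 14 of 42427 unchanged ones. The mean of the D04 gene over all libraries was below that level, so the simulation does not cover it. Smaller changes were not simulated. In the tests between groups, the ratios of mean FPKM of the A05 and D04 genes reached 2.83 at most, in either direction. How often changes of that size would be called is therefore not known. Interactions of stage and line with GhMD17 were added after the values were seen. Ratios were tested by exact sign-flip and permutation within strata, in Python 3.11.15 with numpy 2.4.6. Likeness was the Pearson r over group means.

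Alternatives were a pseudocount of 0.1 FPKM, a mean over 1 FPKM, a fit to the compared groups, a replicate block, median-ratio rescaling, leaving out each library, and the study's limits (P of 0.01, 5 FPKM, ratio of 1.5) with the unadjusted P of limma in place of the study's test. Named genes were the members, the tree's GhMYB2 and GhMYB25 genes and the genes most like each member, of which the first 2 are printed. The members and lists were chosen with earlier results of these data known. The SE and p-values of limma rest on a single estimate of spread per gene, taken within groups over all 16 libraries and adjusted by the variance trend. A gene therefore has the same SE in every comparison of 2 groups. The p-values of the ratio tests rest on the libraries named with each test. The 2 libraries of a group are described as biological replicates.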

Additional observations from a re-analysis of the deposited data

Results flagged for a closer look

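Epidermal values of the A05 gene (Gohir.A05G359100) were higher at 2 than at 0 DPA in both libraries of GhTM-1 and of Gb3-79, and lower in both libraries of GhMD17. The difference between lines in this change, in log2(FPKM + 1), was 1.72 ± 0.49 (SE) for GhTM-1 minus GhMD17 and 1.27 ± 0.49 for Gb3-79 minus GhMD17. The adjusted p in limma was 0.339 and 0.510, so neither passed, and 0.298% and 0.375% of orthologs did. These tests were chosen after the values were seen, and both share the GhMD17 libraries. For the D04 gene the same differences were 0.19 ± 0.74 and -0.93 ± 0.74 (adjusted p = 1.00 and 0.820, limma).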

How the results depend on the processing

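The log2 difference of the A05 gene between Gb3-79 and GhMD17 at 2 DPA passed in the reported fit and no longer passed with a pseudocount of 0.1 FPKM (1.43, adjusted p = 0.0561, limma), in the compared groups alone (1.21, adjusted p = 0.120), after rescaling (1.15, adjusted p = 0.0574) or without any 1 of its libraries (0.93 to 1.49). The difference between fiber cells of Gb3-79 and GhTM-1 (1.15) passed with the mean filter (adjusted p = 0.0478), the replicate block (adjusted p = 0.0474, limma) and the study's limits with the P of limma. The step of the D04 gene from epidermal to fiber cells of Gb3-79 was 3.34 with the smaller pseudocount, and 2.06 to 3.26 without 1 library. The causes were not tested.

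Groups share replicate numbers, and nothing says that they mark a batch. Deviations of same-numbered libraries correlated at -0.0969 to 0.136 (median 0.0199) over 28 pairs of groups. Across all orthologs the numbers therefore showed little pairing, while a shared effect on a given gene was not tested. The block changed no other call.

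Small differences turned direction. For the D04 gene, Gb3-79 minus GhMD17 at 0 DPA was -0.031 after rescaling and -0.38 to 0.39 without 1 library. Leaving out 1 library gave the D04 gene ranges of -0.75 to 0.067 and -0.71 to 0.41 for GhTM-1 minus GhMD17 at 0 and 2 DPA. It gave -0.39 to 0.74 and -0.44 to 0.41 between stages in GhTM-1 and GhMD17, and -0.37 to 0.75 for the difference between them. Gb3-79 minus GhTM-1 was -0.066 to 0.75 at 0 DPA and -0.14 to 1.06 in fiber cells, and Gb3-79 fiber cells minus GhMD17 was 1.13 to 2.32. For the A05 gene, Gb3-79 minus GhMD17 at 0 DPA was -0.29 to 0.17. The ratio of the genes, Gb3-79 minus GhTM-1, was 0.48 to 0.96.

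Fits to the compared groups alone, with fewer libraries to estimate the spread, called 610 in place of 2054 orthologs for GhTM-1 against GhMD17 at 0 DPA, 483 in place of 2066 at 2 DPA, and 2029 in place of 4698 for Gb3-79 at 2 DPA. Between stages they called 54, 2 and 8 in place of 575, 383 and 289 in GhTM-1, Gb3-79 and GhMD17, where those limits gave 1219, 834 and 763. Between the wild types they called 1829, 1486 and 1381 in place of 4023, 4053 and 3046, and for the interactions 32, 10 and 8 in place of 133, 127 and 160. Between stages in Gb3-79, 248 were called with the smaller pseudocount and 187 with the mean filter, which called 81 in place of 160 for the Gb3-79 interaction with GhMD17. Leaving out 1 library gave 1247 to 1490 and 1100 to 2215 calls for GhTM-1 against GhMD17 at 0 and 2 DPA, and 3980 to 4843 (reported: 6428) and 2921 to 3869 for Gb3-79. It gave 500 to 675 and 325 to 453 between stages in Gb3-79 and GhMD17, 2299 to 2980, 2399 to 3353 and 1807 to 2381 between the wild types, and 140 to 422, 211 to 367 and 232 to 416 for the interactions.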
